A study of Mus musculus with 21 samples.

Results

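The genes described here act in the uptake, storage, export and sensing of iron by the cell: Tfrc, Slc11a2, Fth1, Slc40a1, Heph, Ireb2 and Aco1. They were taken by name from a list of iron uptake, storage, export and sensing genes. All 7 were present among the 24176 gene symbols of the bulk RNA table and among the 32285 genes of the single-cell matrix. The series profiled endothelial cells, the cells that line blood vessels, of C57BL/6J mice that were 2 to 4 months old. Sorted cells of brain, lung and liver gave 3 bulk RNA-seq libraries per tissue, and brain cells of the same strain and age range gave 1 single-cell library. The labels name no treatment, transgene or deleted gene in any group. After perfusion, tissues were dissociated with enzymes (collagenase, dispase, DNase), brain alone was cleared of myelin, and the sort kept live CD31+ cells without PDGFRβ, a pericyte marker, or CD45, a blood cell marker. Bulk libraries are described as biological replicates, but no label ties them to animals or pools, so a p-value here covers only library-to-library spread, which may be technical.

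Iron circulates bound to transferrin, and cells take the complex up through the transferrin receptor, release the iron in the endosome, store it in ferritin and export it through ferroportin with the help of a ferroxidase. Iron regulatory proteins sense cytosolic iron and bind RNA hairpins that stabilise the transferrin receptor message and hold back ferritin translation. In the brain the endothelium forms the blood-brain barrier, so iron must cross these cells to reach neurons and glia, and the transferrin receptor is a classic marker of brain vessels. In the liver the sinusoidal endothelium is known as a source of the signals that raise hepcidin, the hormone that removes ferroportin from the cell surface.

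RefSeq promoter windows of the GRCm38.p6 assembly matched 4 of the 7 members: Tfrc, Fth1, Aco1 and Ireb2. Each window ran for 300 bases around a listed transcription start, and Tfrc and Fth1 had more than 1 window each. The stretches below are shown because they set the receptor's promoter beside that of the ferritin heavy chain. They lie on the plus strand at chr16:32608890-32608919 (Tfrc) and chr19:9982635-9982664 (Fth1).
Tfrc: gtgtACGTGcggaaggaagTGACGTAgatc
Fth1: gctgATTGGccagcgctcgcctgacgcagg
The capitals mark ACGTG, the core of the hypoxia response element, TGACGTA, a match resembling the cyclic AMP response element, and ATTGG, the inverted CCAAT box. The Tfrc stretch runs across the first listed start of the gene, with TGACGTA downstream of that start, and begins 232 bases before the second listed start. Its capitalised matches do not overlap. The Fth1 stretch begins 11 bases before a listed start and runs across it. Searched on both strands, ACGTG was found in 19.6% of all 32851 promoter windows of this length, TGACGTA in 1.27%, ATTGG in 37.4% and the string TATAAG, resembling a TATA box, in 7.43%. ACGTG and TGACGTA were found in the Tfrc windows, which overlap and share the printed stretch, and in none of the Fth1, Aco1 and Ireb2 windows. ATTGG was found in a Tfrc window as well as in a Fth1 window, and so was TATAAG. These are matches of letters only, and binding of a factor at them was not measured here.

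Bulk libraries held 15907235 to 21792786 counts in brain, 2992101 to 11308897 in lung and 18485600 to 25690571 in liver, so the lung libraries were the shallowest. Between 12.2% and 28.8% of counts fell on the ribosomal RNA precursor Rn45s. Endothelial markers were high in every tissue, with summed levels of 7810 to 8340 CPM (counts scaled to the library total) in brain, 8710 to 12100 in lung and 3050 to 3350 in liver, and Slc2a1, Ace and Stab2 were highest in brain, lung and liver in turn. Hepatocyte genes summed to 320 to 809 CPM in liver with Alb in the lead, and lung epithelial genes to 306 to 1800 CPM in lung. In a bulk library, fewer cells of a type and less RNA per cell cannot be told apart.

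The transferrin receptor Tfrc was far higher in brain endothelium than in lung or liver, and the iron exporter Slc40a1 was high in brain and liver and low in lung. The other 5 members passed the test in no comparison of tissues. Calls required a change of at least 2-fold and p under 0.05 in edgeR's quasi-likelihood test, with Benjamini-Hochberg adjustment across the 13216 genes tested, which included all 7 members. Against lung, brain had 2 members called, both higher, beside 12.3% of all genes called (5.05% higher and 7.25% lower). Against liver, brain had 1 member called, higher, beside 16.2% of all genes (7.45% higher and 8.72% lower). Between lung and liver 1 member was called higher in lung and 1 lower, beside 15.1% of all genes (8.04% higher and 7.02% lower).

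Tfrc, the receptor that takes in transferrin-bound iron, read 793, 319 and 696 CPM in the brain libraries, 10.2, 1.67 and 13.4 CPM in lung and 2.43, 0.117 and 0.514 CPM in liver. Every brain library lay far above every lung and liver library, while lung and liver overlapped. The means were 603 ± 251 (SD, n = 3) CPM in brain, 8.42 ± 6.07 (SD, n = 3) in lung and 1.02 ± 1.24 (SD, n = 3) in liver. Brain exceeded lung by a log2 fold change of 6.18 (SE 0.96, edgeR adjusted p = 0.00182), or 72.4-fold. Brain exceeded liver by a log2 fold change of 9.13 (SE 1.1, edgeR adjusted p = 0.000218), or 562-fold, against liver libraries that held only 3 to 45 Tfrc counts each. The size of this difference depends on liver replicate 1, without which the log2 fold change was 10.71 (adjusted p = 1.42e-05). Lung was called above liver at a log2 fold change of 2.96 (SE 0.88, edgeR adjusted p = 0.0457), a call near the threshold. Without liver replicate 1 it was 4.53 (adjusted p = 0.00306). The call was lost without lung replicate 1 (adjusted p = 0.137), lung replicate 3 (0.168), liver replicate 2 (0.083), liver replicate 3 (0.152) or brain replicate 1 (0.0535), and over all alternatives edgeR or DESeq2 gave adjusted p from 0.00149 to 0.188.

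Maturing red cells also use the transferrin receptor, and red-cell genes varied across the tissues in the same order of tissues as Tfrc. Their summed level over 10 markers ran from 58.3 to 438 CPM in brain, 23.7 to 107 in lung and 2.26 to 39.2 in liver, with 2, 2 and 3 of the markers at 0, among them Hbb-bt and Hbb-b2. Their part in the bulk Tfrc difference was not tested. In the single-cell brain library the 175 barcodes with red-cell markers carried Tfrc at 0.0199 per 10000 UMIs (unique molecular identifiers, counts of distinct captured RNA molecules), and the 8323 endothelial cells carried it at 3.67.

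**Figure D1:**
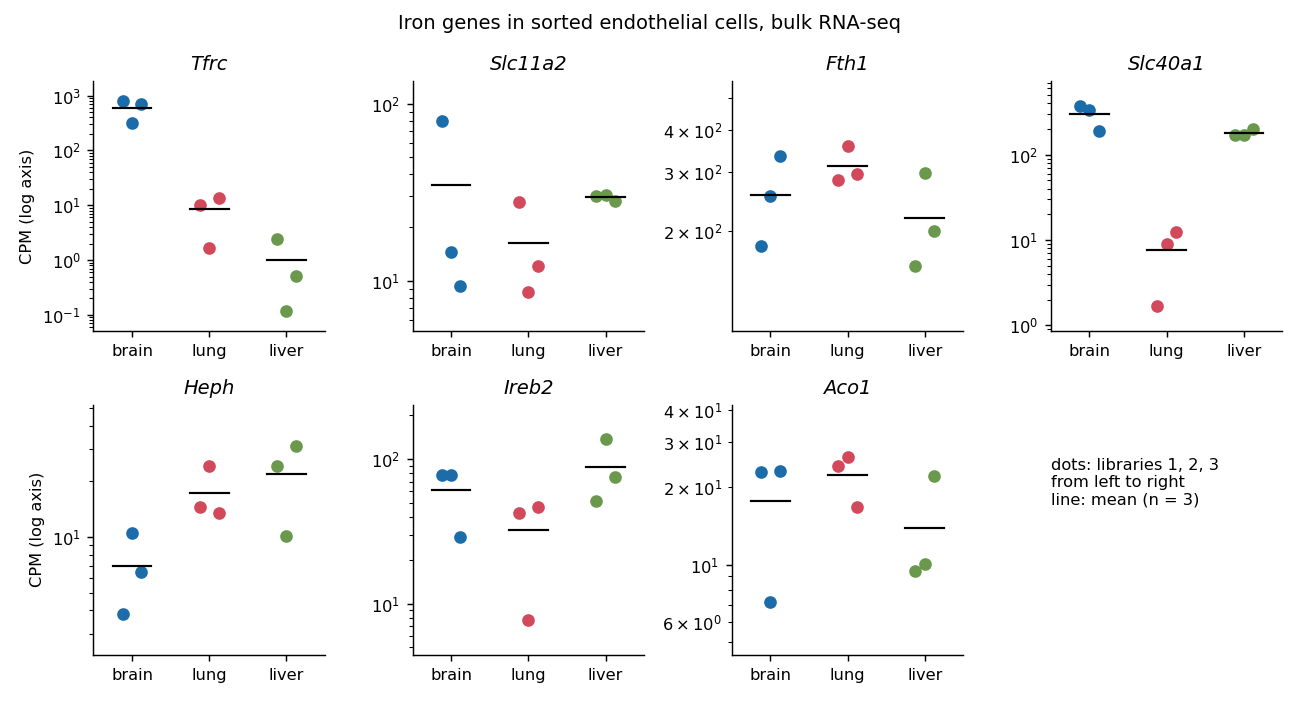
Levels of the 7 iron genes in CPM on a log axis, 1 point per library, for brain, lung and liver endothelial cells (3 libraries each), with a line at the mean. Tfrc separates brain from the other tissues (319 to 793 CPM in brain), and Slc40a1 separates lung (1.68 to 12.4 CPM) from brain and liver.

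Slc11a2 encodes the divalent metal transporter that moves ferrous iron out of the endosome. It read 80.3, 14.5 and 9.32 CPM in brain, 28, 8.69 and 12.1 CPM in lung and 30.2, 30.6 and 28.2 CPM in liver. The liver libraries were close together and above every lung library, while the brain libraries spread across both, with brain replicate 1 alone above the rest. No contrast was called: the log2 difference was 1.09 (SE 0.75, edgeR adjusted p = 0.397) for brain against lung, -0.02 (SE 0.73, adjusted p = 0.998) for brain against liver and -1.12 (SE 0.75, adjusted p = 0.367) for lung against liver. Brain replicate 1 decided the brain values: without it the difference was -0.38 from lung (adjusted p = 0.808) and -1.5 from liver, neither called.

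Fth1, the ferritin heavy chain that oxidises and stores iron, was carried by all 3 tissues. Its levels were 180, 254 and 335 CPM in brain, 285, 359 and 296 CPM in lung and 157, 299 and 200 CPM in liver. The tissues overlapped throughout. The log2 difference was -0.23 (SE 0.35, edgeR adjusted p = 0.754) for brain against lung, 0.23 (SE 0.35, adjusted p = 0.735) for lung against liver and 0 (SE 0.35, adjusted p = 1) for brain against liver. With near-identical copies of ferritin genes in the mouse genome, the counts of Fth1 and Ftl1 are uncertain where reads were split among copies.

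Slc40a1 encodes ferroportin, the exporter of iron from the cell. It read 373, 332 and 192 CPM in brain, 1.68, 9.02 and 12.4 CPM in lung and 171, 173 and 200 CPM in liver. Every lung library lay below every brain and liver library, whereas brain replicate 3 fell within the range of the liver libraries. Means were 299 ± 95.1 (SD, n = 3) CPM in brain, 7.71 ± 5.49 (SD, n = 3) in lung and 181 ± 16 (SD, n = 3) in liver. Brain exceeded lung by a log2 fold change of 5.35 (SE 0.6, edgeR adjusted p = 4.49e-05), or 40.7-fold. Slc40a1 in lung was below liver at a log2 fold change of -4.83 (SE 0.59, edgeR adjusted p = 8.27e-05), or 28.4-fold. Brain and liver differed by 0.52 on the log2 scale (SE 0.49, edgeR adjusted p = 0.558), which is within the spread between libraries.

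Macrophages also carry ferroportin, and macrophage markers were not equal across the tissues. Their summed level was 5.8 to 32.5 CPM in brain, 18.4 to 26.1 in lung and 1620 to 1990 in liver, where nearly all of it was Mrc1, a receptor that liver sinusoidal endothelium is known to carry as well. Of 6 Kupffer cell markers in the table, which name the resident macrophages of the liver, 5 were at 0 in brain, 6 in lung and 1 in liver, and their liver sum was 1.28 to 5.14 CPM. Their part in the Slc40a1 level of liver was not tested. In brain 2 of the 8 macrophage markers were at 0 (Tmem119 and Aif1), and Cx3cr1 was highest with a mean of 10.1 CPM.

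Heph encodes hephaestin, a membrane ferroxidase that works with ferroportin. It read 3.83, 10.5 and 6.47 CPM in brain, 14.6, 24.1 and 13.4 CPM in lung and 24.2, 10.1 and 31.2 CPM in liver. The brain libraries lay below every lung library, while liver replicate 2 fell among the brain values. The difference did not pass the test for brain against lung (log2 -1.27, SE 0.67, edgeR adjusted p = 0.255), for brain against liver (-1.77, SE 0.67, adjusted p = 0.0934) or for lung against liver (-0.5, SE 0.66, adjusted p = 0.682). Under DESeq2 the brain against liver difference of -1.75 passed, with an adjusted p of 0.0266; over all alternatives it ran from 0.0266 to 0.244.

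Ireb2 and Aco1 encode the iron regulatory proteins IRP2 and IRP1, the sensors of cytosolic iron. Ireb2 read 77.3, 77.4 and 29.1 CPM in brain, 42.2, 7.69 and 46.8 CPM in lung and 51.3, 137 and 75.4 CPM in liver. Every liver library lay above every lung library, and brain overlapped both. The lung against liver difference of -1.77 (SE 0.64, edgeR adjusted p = 0.0823) missed the threshold, and DESeq2 gave -1.76 with an adjusted p of 0.0391. The other Ireb2 differences were 0.97 (SE 0.63, edgeR adjusted p = 0.375) for brain against lung and -0.81 (SE 0.63, adjusted p = 0.45) for brain against liver.

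Aco1 read 22.9, 7.14 and 23.0 CPM in brain, 24.1, 26.1 and 16.8 CPM in lung and 9.41, 10.1 and 22.0 CPM in liver. All 3 tissues overlapped. The largest of its differences was 0.48 on the log2 scale for lung against liver (SE 0.64, edgeR adjusted p = 0.688), followed by -0.28 (SE 0.64, adjusted p = 0.839) for brain against lung and 0.2 (SE 0.64, adjusted p = 0.887) for brain against liver.

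**Figure D2:**
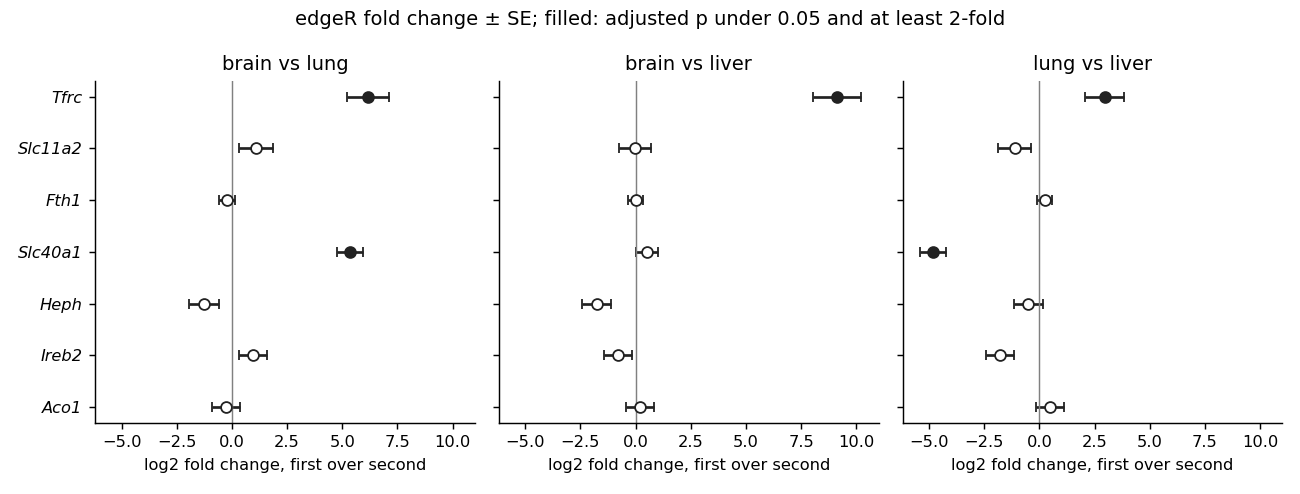
Fitted log2 fold change with its standard error for each of the 7 iron genes in the 3 comparisons of tissues (3 libraries per tissue), with filled marks for calls. Tfrc and Slc40a1 hold all of the calls, and Tfrc in brain against liver reaches 9.13.

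Over the 7 members the median log2 fold change was 0.97 for brain against lung, 0 for brain against liver and -0.5 for lung against liver, beside 0, 0.01 and 0 over all genes tested. The libraries of the tissues compared did not overlap for 3, 1 and 3 of the members in these comparisons, beside 33.8%, 33.2% and 34.5% of all genes. The comparisons share libraries with each other, so their counts are not independent.

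For each member the 3 genes with the most similar pattern were taken by Pearson's r of log2 CPM over the 9 libraries, among the 3695 genes averaging 5 or more on that scale. The glucose transporter Slc2a1, of the blood-brain barrier, was most like Tfrc (r = 0.98), followed by the cationic amino acid transporter Slc7a1 (r = 0.976) and Mtus1 (r = 0.973). Slc2a1 averaged 3410 CPM in brain, 25.8 in lung and 2.69 in liver, and Slc7a1 averaged 724, 29.5 and 3.24. Lama4 (r = 0.972) and Apbb2 (r = 0.953) were among the 3 genes closest to Slc40a1. Lama4, a laminin chain of the vessel basement membrane, averaged 96.5 CPM in brain, 7.53 in lung and 102 in liver.

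Among the genes closest to the uncalled members, Itga1, an integrin chain (r = 0.906), led for Slc11a2 with means of 352, 341 and 329 CPM in brain, lung and liver. Ranbp10 (r = 0.931) led for Fth1, Vcpip1 (r = 0.959) for Ireb2 and Bcl2l11 (r = 0.894) for Aco1. These values describe 9 libraries that share tissue, depth and total, and with 3 tissues a large step between tissues alone gives a high r.

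Around the members, 6 lists of further iron genes held 88 symbols, of which 82 were in the bulk table and 71 were tested. Against lung, brain had 7 of the 71 called higher and 8 lower. Against liver, 9 were higher and 8 lower, and between lung and liver 5 were higher in lung and 10 lower. The brain against liver total fell to 11 without brain replicate 3, liver replicate 1 or liver replicate 3. In lung against liver the total fell to 6 without lung replicate 3, to 8 without lung replicate 2 and to 9 without liver replicate 1 or liver replicate 2. The median log2 fold changes of the 71 genes were 0.21, -0.18 and -0.38, beside 0, 0.01 and 0 over all genes tested. The shares of all genes called are those given above, 12.3%, 16.2% and 15.1%.

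Of 12 further uptake genes tested, 1 was higher and 2 were lower in each comparison. Over all genes, 5.05% were called higher and 7.25% lower in brain against lung, and 7.45% and 8.72% in brain against liver. In lung against liver the shares were 8.04% and 7.02%, and these same shares stand beside the counts of the further lists below. Slc39a8 (ZIP8), a zinc, manganese and iron importer, read 132, 157 and 118 CPM in brain, 11.4, 0 and 1.16 CPM in lung and 404, 285 and 480 CPM in liver. The lung libraries were lowest without overlap, and brain exceeded lung by a log2 fold change of 4.92 (SE 0.93, edgeR adjusted p = 0.00574). Slc39a14 (ZIP14), its close relative, had the opposite standing in lung, with 22.2, 46.1 and 29.5 CPM in lung against 0.314, 0.167 and 3.99 in brain and 0.541, 0.701 and 2.74 in liver. Its lung libraries were above all others, and it was called lower in brain than in lung at -4.32 (SE 1.22, edgeR adjusted p = 0.0316) and higher in lung than in liver at 4.44 (SE 1.22, adjusted p = 0.0257). Trf, transferrin itself, read 0.688 to 2.33 CPM in brain, 4.95 to 15.7 in lung and 34.3 to 45.7 in liver, in steps that all passed the test. Trf is also one of the hepatocyte genes that were present in the liver libraries, and its source was not tested.

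The ferritin light chain was called in all 3 comparisons, unlike the heavy chain. Ftl1 read 70.7, 123 and 105 CPM in brain, 212, 301 and 225 CPM in lung and 415, 775 and 445 CPM in liver. The 3 tissues did not overlap, and brain was below lung at -1.25 (SE 0.36, edgeR adjusted p = 0.037) and below liver at -2.69 (SE 0.38, adjusted p = 0.000218), where Fth1 differed by -0.23 and 0. Whether the Ftl1 and Fth1 differences themselves differ was not tested. Ncoa4, the receptor that carries ferritin to lysosomes for breakdown, was highest in brain: 206, 81.9 and 236 CPM in brain, 45.4, 25.1 and 38.7 CPM in lung and 64.2, 55.2 and 55.6 CPM in liver. Brain exceeded lung by 2.33 (SE 0.43, edgeR adjusted p = 0.00291) and liver by 1.4 (SE 0.42, adjusted p = 0.035) on the log2 scale.

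Among ferroxidases, Cp (ceruloplasmin) was called higher in brain and Heph was not. Cp read 356, 314 and 253 CPM in brain, 13.8, 2.01 and 19.2 CPM in lung and 25.7, 13.7 and 30.6 CPM in liver. The brain libraries were above all others, by a log2 fold change of 4.75 over lung (SE 0.6, edgeR adjusted p = 0.000122) and 3.57 over liver (SE 0.56, adjusted p = 0.000523). Epithelium of the choroid plexus is also known to make Cp, and its marker Ttr averaged 444 CPM in the brain libraries, whose part was not tested; in the brain single-cell matrix 4.97% of Cp UMIs lay outside the cells classed as endothelial. Hamp (hepcidin) was present at 4.17 to 4.88 CPM in liver and had no count in lung, so liver was at least 32.7-fold higher, with the lung group set to a floor of 3 counts in total. Hamp is made by hepatocytes, whose marker list it belongs to.

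**Figure D3:**
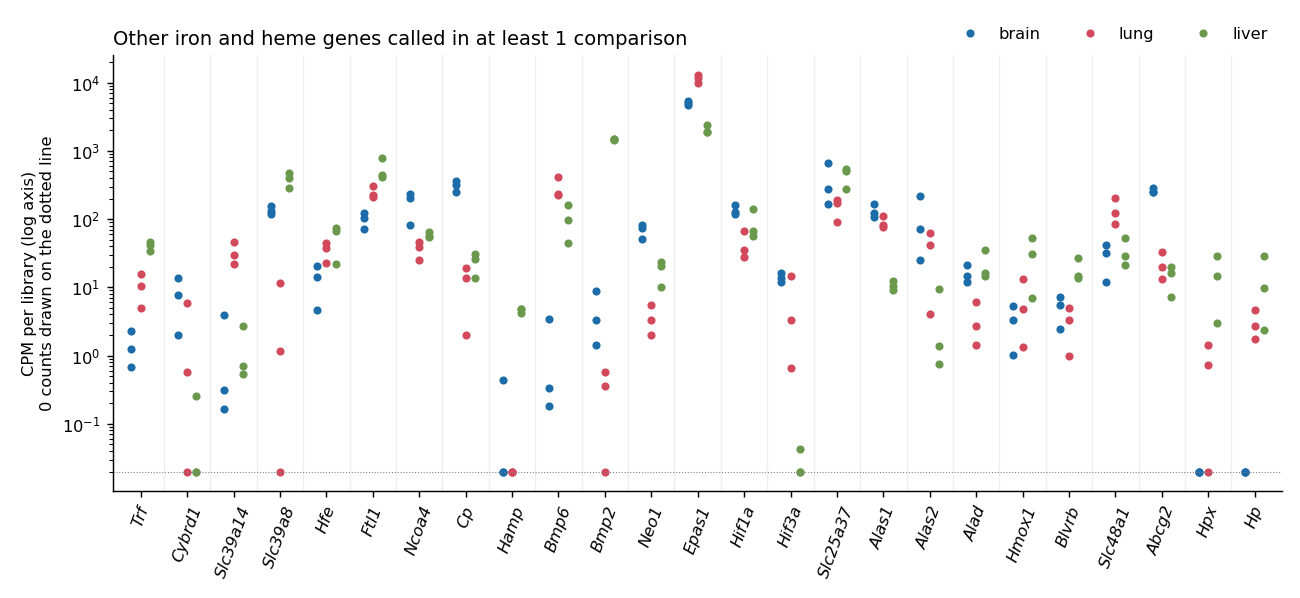
CPM per library on a log axis, 1 point per library (3 each of brain, lung and liver), for the genes of the further iron lists called in at least 1 comparison; libraries with 0 counts sit on the dotted line. Cp and Ncoa4 stand highest in brain, Slc39a14 and Bmp6 in lung, and Ftl1, Trf and Bmp2 in liver.

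Of 14 tested genes of iron sensing and hepcidin control, 3 were higher and 2 lower in brain against lung, 3 and 2 against liver, and 2 and 2 in lung against liver. Bmp2, a ligand that induces hepcidin, read 1500, 1440 and 1500 CPM in liver against 3.27, 1.45 and 8.9 in brain and 0.354, 0 and 0.578 in lung. Its liver libraries were far above all others, and brain was below liver at -8.5 on the log2 scale (SE 0.7, edgeR adjusted p = 4.89e-06). Bmp6, the ligand that couples liver iron to hepcidin, was highest in lung at 228, 411 and 236 CPM, followed by liver at 95.6, 44 and 162 and brain at 3.46, 0.334 and 0.184. Brain lay below both, at -7.81 against lung (SE 1.02, edgeR adjusted p = 0.000379) and -6.43 against liver (SE 0.96, adjusted p = 0.000703), and lung and liver were not called apart. Neo1, a co-receptor partner in this pathway, was higher in brain (50.5, 74 and 80.8 CPM) than in lung (5.48, 3.34 and 2.02) or liver (20.7, 10.2 and 23.7). Epas1 (HIF-2α), an oxygen-regulated factor known to act on iron genes, read 4970, 4660 and 5310 CPM in brain, 12800, 11600 and 9830 CPM in lung and 1880, 2360 and 1870 CPM in liver, and all 3 steps were called.

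Of the 18 tested genes of mitochondrial iron and iron-sulfur cluster assembly, edgeR called 0 between brain and lung, where 4 had an unadjusted p under 0.05 and DESeq2 called 4 (Glrx5, Isca1, Iscu and Slc25a37). Between brain and liver edgeR again called 0, with 1 at an unadjusted p under 0.05 and 1 called by DESeq2 (Glrx5). In lung against liver 1 of the 18 was lower: Slc25a37 (mitoferrin-1), the importer of iron into mitochondria, at -1.73 (SE 0.45, edgeR adjusted p = 0.0201). Of 20 tested heme genes, 1 was higher and 3 lower in brain against lung, 3 were higher and 3 lower in brain against liver, and 2 were higher and 3 lower in lung against liver. Abcg2, an exporter whose substrates include porphyrins, read 249, 247 and 289 CPM in brain, at most 32.7 in lung and at most 19.7 in liver. Alas1, the rate-limiting enzyme of heme synthesis outside red cells, read 122, 164 and 106 CPM in brain, 82.8, 112 and 76.8 CPM in lung and 12.2, 9.23 and 10.3 CPM in liver. It was called higher in brain than in liver at 3.44 (SE 0.38, edgeR adjusted p = 2.77e-05) and in lung than in liver at 2.87 (SE 0.37, adjusted p = 0.000148). Hpx and Hp, plasma proteins of hepatocytes that bind heme and hemoglobin, had no count in brain, so liver was at least 289-fold and 256-fold higher. Alas2, the red-cell form of Alas1, was called higher in brain than in liver. In the brain single-cell matrix 99.6% of its UMIs lay in barcodes that were not classed as endothelial. Alas2 is itself among the red-cell markers that left barcodes out of that class, so this share follows in part from the rule.

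The single-cell library resolved the brain vessels that the bulk libraries averaged. Of 9405 barcodes, 8797 had at least 1000 UMIs and at most 20% mitochondrial UMIs, and 8323 of these were classed as endothelial from markers. Marker gates placed 1367 cells as arterial, 1028 as capillary, 723 as venous and 147 as fenestrated, the leaky vessels with pores found in places such as the choroid plexus, and left 5058 in no gate. Median depth was 5993 UMIs in the arterial gate, 3306 in the capillary gate, 5162 in the venous gate and 5515 in the fenestrated gate. The capillary gate demanded that arterial and venous markers be at 0, which shallower cells meet more easily. The fenestrated gate needed 2 or more UMIs of Plvap, the diaphragm protein of fenestrae, a minimum set after 59 cells without it were seen to carry arterial markers. With 1 library there is no test, and the intervals given are exact 95% Poisson intervals that cover counting error only. Differences are named where they reached 1.5-fold with intervals that do not overlap, a rule applied to genes with at least 100 UMIs over the 4 gates.

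Tfrc and Slc40a1 shared a gradient: both were low in arterial cells, high in capillary and venous cells and lowest in fenestrated cells. Arterial cells were lower than capillary cells for 3 of the 7 members (Tfrc, Slc40a1 and Slc11a2), beside 5.93% of all 9549 genes, and higher for 0, beside 5.89%. Fenestrated cells were lower than capillary cells for 3 (Tfrc, Slc40a1 and Ireb2), beside 12.2%, and higher for 0, beside 9.7%. Venous cells were higher than capillary cells for 1 (Fth1), beside 3.3%, and lower for 0, beside 3.46%. Venous cells were higher than arterial cells for 3 (Tfrc, Slc40a1 and Slc11a2), beside 5.69%, and lower for 0, beside 7.32%.

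Tfrc was measured at 1.43 per 10000 UMIs (1.35 to 1.51) in arterial cells, 4.74 (4.52 to 4.96) in capillary cells, 6.02 (5.78 to 6.26) in venous cells and 0.482 (0.349 to 0.65) in fenestrated cells. All 4 intervals stood apart. Capillary cells carried 3.31-fold more than arterial and 9.82-fold more than fenestrated cells, and venous cells 4.2-fold more than arterial cells, while the step from capillary to venous was under the 1.5-fold rule. With every cell thinned to 2000 UMIs, and 34 arterial, 193 capillary, 39 venous and 8 fenestrated shallower cells left out, the levels were 1.37, 4.7, 6.41 and 0.252, in the same order.

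Slc40a1 followed with 1.63 per 10000 UMIs (1.55 to 1.72) in arterial, 4.04 (3.84 to 4.25) in capillary, 4.47 (4.27 to 4.68) in venous and 0.606 (0.455 to 0.79) in fenestrated cells. The capillary level was 2.48-fold the arterial and 6.67-fold the fenestrated level, and the venous level was 2.74-fold the arterial. The capillary and venous levels differed by less than the rule asks, although their intervals were apart. After thinning the levels were 1.7, 4.1, 4.9 and 0.54.

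**Figure D4:**
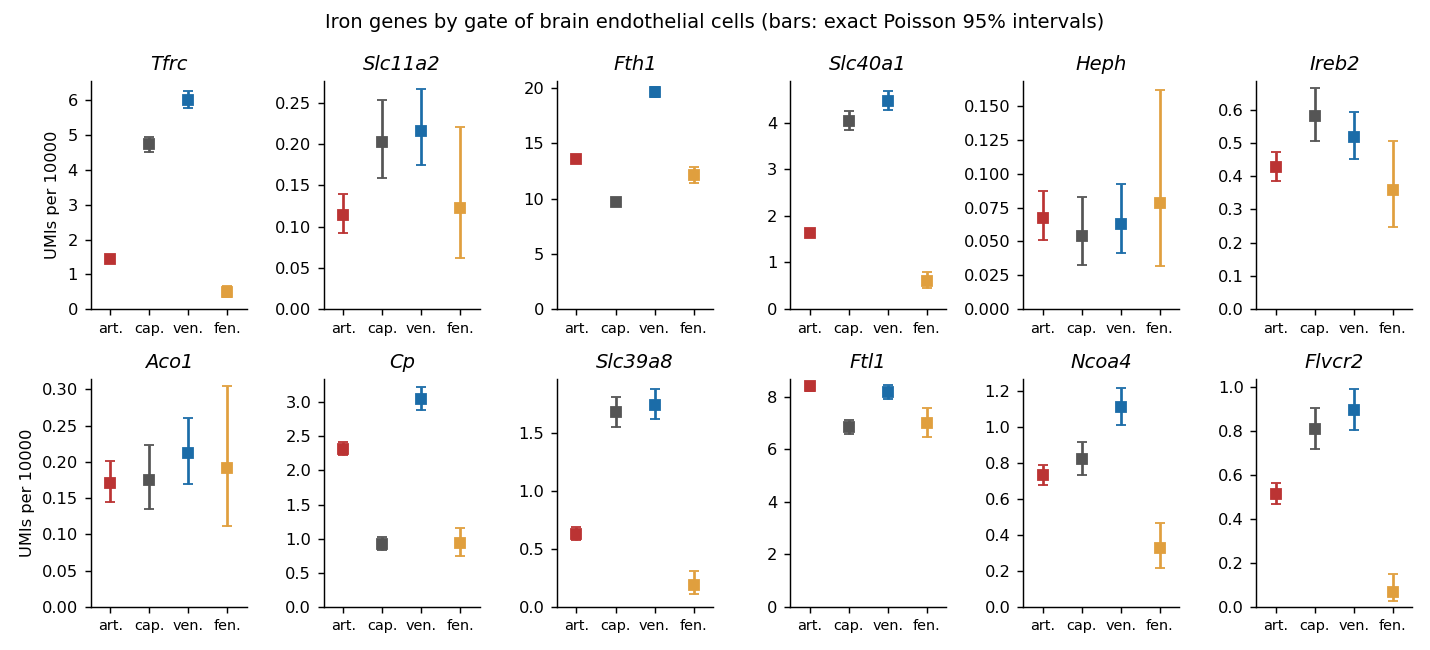
UMIs per 10000 of the 7 iron genes and of Cp, Slc39a8, Ftl1, Ncoa4 and Flvcr2 in the arterial, capillary, venous and fenestrated gates of the 1 brain library, with exact 95% Poisson intervals. Tfrc runs from 0.482 in fenestrated to 6.02 in venous cells, and Fth1 stands highest in venous cells at 19.6.

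Fth1 did not follow that gradient. It read 13.6 per 10000 UMIs (13.4 to 13.8) in arterial, 9.72 (9.4 to 10.0) in capillary, 19.6 (19.2 to 20.1) in venous and 12.1 (11.4 to 12.9) in fenestrated cells. Capillary cells, which were among the richest in Tfrc, were lowest in Fth1, and the venous level was 2.02-fold the capillary. Thinning to 2000 UMIs lowered the venous value to 16.8 and gave 9.1 in capillary, 13.1 in arterial and 12.3 in fenestrated cells. A stricter gate raised the venous value to 25.8, with 9.92 in capillary cells. The mean over cells was 17.4 in the venous and 8.64 in the capillary gate.

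Slc11a2 read 0.114 per 10000 UMIs (0.0923 to 0.139) in arterial, 0.202 (0.159 to 0.253) in capillary, 0.216 (0.174 to 0.266) in venous and 0.123 (0.0616 to 0.221) in fenestrated cells. The capillary level was 1.78-fold and the venous level 1.9-fold the arterial, and the fenestrated level rests on 11 UMIs. Ireb2 read 0.427, 0.582, 0.518 and 0.359 in the same order of gates, with the capillary level 1.62-fold the fenestrated. Aco1 read 0.171, 0.175, 0.212 and 0.191 and Heph 0.0673, 0.0539, 0.0632 and 0.0785, and no difference between gates met the rule for either. Heph had 273 UMIs among all 9405 barcodes, of which 7 to 58 fell in a gate, so differences in it were not detectable at this depth beyond wide intervals.

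The endothelial cells were also ordered by the number of venous minus arterial markers seen. This score counts detected markers, Vcam1 among the venous ones, and does not measure position along the vessel tree. Tfrc was 1.04 per 10000 UMIs in the 793 cells with a difference of -4 or below, 2.23 at -2, 4.39 at 0, 6.1 at 2 and 5.84 in the 356 cells at 4 or above. It climbed through the cells around 0 and was level from 2 onward, where intervals overlapped (5.82 to 6.38 at 2, 5.53 to 6.17 at 4 or above). Slc40a1 went from 1.15 through 2.14, 3.72 and 4.38 to 4.29 at the same points. Fth1 had a different shape, with 15.6 at the arterial end, 10.7 to 12.1 between -2 and 2, 12.8 at 3 and 29.7 (29.0 to 30.5) at 4 or above. Both the score and these levels come from the same cells of 1 library, and cells near 0 include those with few UMIs, with a median of 3545.

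**Figure D5:**
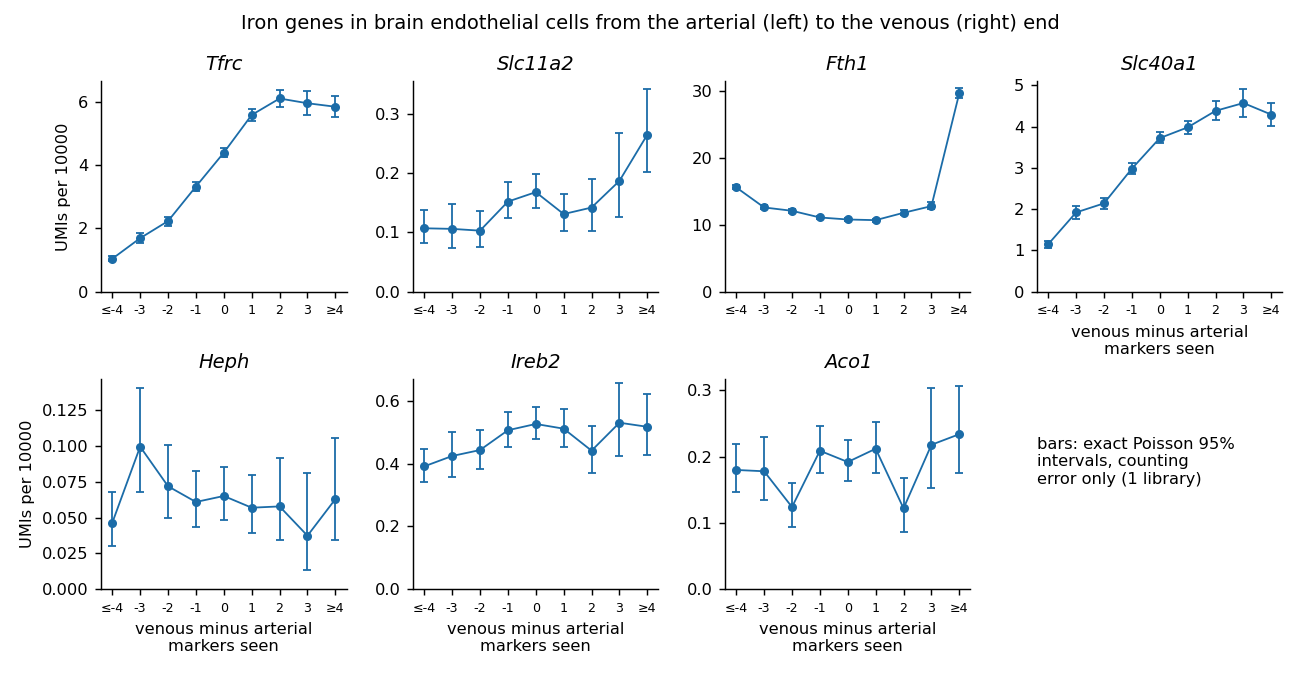
UMIs per 10000 of the iron genes in endothelial cells of the 1 brain library, along the number of venous minus arterial markers with a UMI, with exact 95% Poisson intervals. Tfrc and Slc40a1 climb from the arterial to the venous side, and Fth1 stays between 10.7 and 15.6 until the last bin at 29.7.

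Within the venous gate, Fth1 was higher in cells with Lcn2, a siderophore-binding protein and acute-phase gene on the uptake list, than in cells without. This split was chosen after the values were seen and is given as a description. Of the 723 venous cells, 101 had a UMI of Lcn2, with a median depth of 5227 UMIs against 5146 in the other 622. Fth1 read 46.1 per 10000 UMIs (44.4 to 47.7) in cells with Lcn2 and 14.7 (14.3 to 15.1) in those without, or 4.74 and 1.51 times the capillary level. The 101 cells held 37.3% of the venous Fth1 UMIs and 15.9% of all venous UMIs, and the other 622 held 62.7% of the Fth1 UMIs. Slc11a2 ran the same way, with 0.382 (0.247 to 0.564) in cells with Lcn2, on 25 UMIs, and 0.185 (0.142 to 0.236) without. Tfrc ran the other way, with 4.65 (4.14 to 5.2) in cells with Lcn2 and 6.28 (6.02 to 6.55) without. Slc40a1 did so too, with 3.21 (2.79 to 3.68) and 4.71 (4.48 to 4.94). Both of these differences were under the 1.5-fold rule. The intervals of Heph, Ireb2 and Aco1 overlapped. Ftl1 differed little, with 9.24 (8.52 to 10.0) against 7.99 (7.7 to 8.3). A split by Vcam1, an adhesion molecule of large and inflamed veins that is also a gate marker, gave Fth1 of 32.4 in 238 cells with a UMI and 13.4 in 485 without.

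Of the further iron lists, 56 genes had enough UMIs to compare gates. Arterial cells were higher than capillary cells for 4 and lower for 7 (beside 5.89% and 5.93% of all genes), and venous against capillary cells for 2 and 2 (beside 3.3% and 3.46%). The counts were 7 and 9 for fenestrated against capillary cells (beside 9.7% and 12.2%) and 8 and 3 for venous against arterial cells (beside 5.69% and 7.32%). They include Bmp6 and Lcn2, which reached the UMI minimum only through the fenestrated and the venous gate, so their higher calls followed from the filter and support nothing. Slc39a8 followed Tfrc, with 0.631 per 10000 UMIs in arterial, 1.68 in capillary, 1.74 in venous and 0.191 in fenestrated cells. So did Flvcr2, a transporter of the barrier endothelium, with 0.513, 0.806, 0.892 and 0.0673, and Abcg2 with 9.12, 14.8, 15 and 5.83. Cp did not, with 2.32 in arterial and 3.05 in venous cells against 0.927 in capillary and 0.931 in fenestrated cells. The 101 venous cells with Lcn2 held 45.2% of the venous Cp UMIs, at 8.67 per 10000 UMIs (7.97 to 9.42). Without them the venous level was 1.99 (1.84 to 2.14), still 2.15 times the capillary level. It was below the arterial level by less than the 1.5-fold rule asks. Ncoa4 read 0.732, 0.822, 1.11 and 0.325, with the fenestrated cells 2.53-fold below the capillary.

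Bmp6, which brain bulk libraries carried at 3.46 CPM or less, was found mostly in the fenestrated gate. It had 102 UMIs there, in 43 of 147 cells, and 0 in the capillary gate. This is at least 142-fold higher against a capillary floor of 3 UMIs, given as a description because the gene met the UMI minimum through this gate alone. The arterial and venous gates held 3 UMIs and 1 UMI of it, and 29 of its 139 UMIs lay in 23 endothelial cells in no gate. Fenestrated cells were also above capillary cells in Hfe, the hemochromatosis protein that binds the transferrin receptor, at 0.438 against 0.145, or 3.01-fold. Hamp had 114 UMIs in the whole matrix, of which 92 came from 1 venous cell, and was not read as a property of the gate. Marker sums of mural cells, microglia, leukocytes, fibroblasts, neurons and oligodendrocytes were at most 0.123 per 10000 UMIs in every gate, and red-cell genes were at 2.49 to 3.76. Barcodes with 2 or more markers of another cell type had been left out, so low sums follow in part from that rule. Astrocyte markers ran from 0.72 in venous to 3.03 in fenestrated cells and choroid plexus markers from 0.0731 in arterial to 0.471 in fenestrated cells, while endothelial markers were lowest in fenestrated cells (135 against 216 to 227), and their part in the fenestrated values was not tested. Mural cells, of which 27 barcodes were found, carried Tfrc at 0.39 (0.143 to 0.848) and Slc40a1 at 0.13 (0.0157 to 0.469).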

How the data were processed

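The members and lists were chosen with earlier results of these data known. The bulk values were raw counts per gene symbol, deposited by the authors, per the file headers, and the brain cells had UMI counts per gene and barcode, also deposited by the authors. The submitters' processing notes list Cell Ranger 1.2.0, HTSeq 0.6.1, SAMtools 1.10.2, TopHat, Bowtie2 and Picard, and the builds mm10 and mm9, without tying any to an assay. How strand was used in counting, and whether cells were filtered or doublets removed earlier, is not given in the sources used here. No doublet caller was run: barcodes with 2 or more markers of another cell type, or 4 or more red-cell markers, were left out of the endothelial class, which needed 4 or more endothelial markers. An arterial or venous cell had 3 or more markers of its gate and at most 1 of the other, a capillary cell 5 or more capillary markers, and a fenestrated cell 3 or more fenestrated markers. Names were taken from the table as deposited; 23001 of 24176 symbols matched the mouse gene table. ATAC libraries were not used here.

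Counts were tested with edgeR 4.0.16 in R 4.3.3: filterByExpr, TMM scaling, a robust quasi-likelihood fit of all 9 libraries with 1 mean per tissue, and Benjamini-Hochberg adjustment over all genes tested. CPM are counts scaled to the library total. DESeq2 1.42.0 was an alternative, as were other scalings, no filter, only the tissues compared, a replicate block and leaving out each library. The rule for named genes took all 7 members, allowed any called gene of the further lists, of which examples are given, and took the 3 genes most like each member, some of which are not reported here; genes outside these (Slc2a1, Ace, Stab2, Vcam1 and single-cell examples) were chosen after their values were seen. Intervals and floors cover counting error only.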

Additional observations from a re-analysis of the deposited data

How the results depend on the processing

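Of the members' bulk values under the alternatives, 329 kept direction and side of the threshold, 8 lost the call, 2 gained it (Heph in brain against liver and Ireb2 in lung against liver, -1.76, both under DESeq2) and 18, all of them uncalled, changed sign. The 8 were all Tfrc in lung against liver, so that 1 member was called there with library size alone (log2 3.14, edgeR adjusted p = 0.0502), with no count filter (2.94, adjusted p = 0.148) and with only the 2 tissues compared (2.89, adjusted p = 0.188). Slc11a2 in brain against liver was 0.01 under DESeq2, 0.01 under relative log expression scaling and 0.22 with library size alone, and Fth1 there was -0.01 without Rn45s and 0 with no count filter. Without 1 library, Slc11a2 ranged from -0.38 to 1.73 (brain against lung) and -1.5 to 0.41 (brain against liver), Aco1 from -0.57 to 0.09 and -0.09 to 0.58, and Fth1 from -0.29 to 0.48 (brain against liver) and -0.02 to 0.7 (lung against liver). DESeq2 called 2 members in brain against liver, Tfrc and Heph. Leaving out 1 library, the members called ranged from 2 to 2, 1 to 1 and 1 to 2 in brain against lung, brain against liver and lung against liver, the further list from 10 to 17, 11 to 17 and 6 to 16, and all genes from 1108 to 1957, 1683 to 2131 and 1312 to 1978. Scaling by library size instead of TMM shifted the log2 fold changes of single genes by a median of -0.053 in brain against lung. The median shift was 0.158 in brain against liver and 0.212 in lung against liver. No pairing of libraries by replicate number was detected (same-number correlations from -0.00325 to 0.0779 over 9 pairs, and 4 of 9 libraries closest to their own number). With 3 libraries per tissue this cannot exclude a shared animal or batch. With the replicate block 1440, 1870 and 1660 genes were called, 2, 1 and 2 of them members. The Tfrc log2 fold changes between tissues were then 6.47, 9.56 and 3.09, beside 6.18, 9.13 and 2.96 in the main fit. Tfrc per 10000 UMIs was 1.17 in a stricter arterial gate, 6.41 (thinned) or 6.31 (mean over cells) in the venous gate, and 0.252, 0.344 or, without the Plvap minimum, an alternative added after seeing the data, 0.741 in the fenestrated gate. The depth of lung replicate 2 limits low genes such as Tfrc in lung, and 1 single-cell library gives no spread between animals.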
